A study of Mus musculus with 11 samples.

Results

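Transcript levels of 10 genes that code for elastic fibres and for the microfibrils around them were followed in 11 poly(A) RNA libraries of SMB21 cells. The genes were Eln, Fbn1, Fbn2, Mfap2, Mfap4, Emilin1, Emilin2, Fbln1, Fbln2 and Ltbp1, taken from a table of 22619 genes. They were chosen by their CPM (counts scaled to the size of the library) in these same libraries, so their levels and fold changes are descriptions and carry no p-values. Where a fit across all genes called a member, nothing is read from the call. SMB21 is a line from a medulloblastoma, a tumour of the cerebellum, of adult mice with mutant Ptch1 (Ptch1tm1Mps/J), and all groups share that background and growth as neurospheres. Parental cells gave 3 libraries without drug and 2 after 24 h with sonidegib, which blocks the Hedgehog signal transducer Smoothened. Clones with mutant Sufu, a brake on the Gli factors of the pathway, gave 2 libraries, from clones R13 (replicate 1) and R1 (replicate 2). Clones with mutant Ofd1, a gene for a centriolar protein that cilia need, gave 4 libraries from 3 clones: R14 (replicates 1 and 2), R16 (replicate 3) and R25 (replicate 4). Each clone was taken from a transposon screen for drug resistance, and whether clones were kept in drug is not given in the labels. The dose of sonidegib is likewise not given. The labels call the parental, sonidegib and R14 libraries biological replicates without saying what was repeated, so their spread may be partly technical.

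An elastic fibre has a core of crosslinked elastin on a scaffold of microfibrils, which are polymers of fibrillins. Microfibril-associated proteins, EMILINs and fibulins bind elastin, the fibrillins or both and take part in assembly, and latent TGF-beta binding proteins tether stored TGF-beta to the microfibrils. Elastic fibres are best known from arteries, lung and skin, and in the brain they are found mainly in vessels and meninges.

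Totals ran from 24308451 to 38241595 counts per library. Ofd1 stood at 9.27 to 23.4 CPM in Ofd1 mutants and 35.4 to 42.9 CPM in parental cells. Sufu stood at 2.76 CPM in R13, 17.7 CPM in R1 and 27.7 to 29.6 CPM in parental cells, and it was also below the parental range in the 4 Ofd1-mutant libraries, at 12.02 to 19.2 CPM. In sonidegib replicate 2 Ofd1 was at 23.4 CPM and Sufu at 5.601 CPM. That library stood apart: across genes, its log2 level relative to the mean of all libraries correlated at -0.529 with transcript length, while the other 10 libraries ran from -0.00044 to 0.238. A second axis of variation, principal component 2 with 17.2% of the variance, set parental replicates 1 and 2 and sonidegib replicate 1 (26.2 to 35.7) apart from the other 8 libraries (-23.5 to -3.31). Members whose values moved within that set, or against parental replicate 3 alone, are given with those values below. Each of 10 markers of the granule cell lineage, from whose progenitors this tumour arises, was at 1 CPM or more in all 11 libraries. They summed to 2319 to 2664 CPM in parental, 3930 to 3953 CPM in sonidegib, 1984 to 2057 CPM in Sufu-mutant and 2188 to 2625 CPM in Ofd1-mutant libraries. After sonidegib 6 of the 10 lay above all parental libraries and 1, Gli1, lay below, beside 18.0% and 16.3% of all genes. Gli1 stood at 219.6 to 242.6 CPM in parental, 7.68 to 8.82 CPM in sonidegib, 228.7 to 238.3 CPM in Sufu-mutant and 69.9 to 186.7 CPM in Ofd1-mutant libraries.

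Marker lists of other cell types were read beside the members. Of 12 fibroblast and pericyte markers, 7 stayed under 1 CPM in all libraries, among them the collagen genes Col1a2 (at most 0.253 CPM) and Col3a1 (at most 0.168 CPM) and the pericyte receptor Pdgfrb (at most 0.0621 CPM). The summed level of that list was 155 to 375 CPM in parental, 57.6 to 84.5 CPM after sonidegib, 198 to 476 CPM in Sufu and 232 to 424 CPM in Ofd1 mutants, and 1 marker, Pdgfra at 50.3 to 465 CPM, made up most of it; Cspg4 reached 12.3 CPM. Of 10 endothelial markers 7, and of 8 microglial markers 8, stayed under 1 CPM. Endothelial sums were 2.75 to 11.1 CPM in parental, 1.97 to 2.86 CPM in sonidegib, 3.81 to 5.50 CPM in Sufu and 4.57 to 15.3 CPM in Ofd1 libraries. Of 8 leptomeningeal markers 3 stayed under 1 CPM, with sums of 58.7 to 82.1 CPM in parental, 69.7 to 94.9 CPM in sonidegib, 61.7 to 118 CPM in Sufu and 44.8 to 130.3 CPM in Ofd1 libraries. Of 8 astrocyte markers 2 stayed under 1 CPM, and the list summed to 438 to 727 CPM in parental, 666 to 991 CPM in sonidegib, 389 to 456 CPM in Sufu and 289 to 496 CPM in Ofd1 libraries. The part of these lists in the values below was not tested. In bulk RNA, fewer cells of a type and less RNA per cell cannot be told apart.

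The 10 genes differed widely in level. Per kb of the longest annotated transcript, Mfap4 had the highest mean over the 11 libraries, 26.8 CPM per kb, followed by Fbln1 at 6.99, Mfap2 at 6.67, Eln at 4.65 and Emilin1 at 1.70 CPM per kb. Fbn2 (0.590), Ltbp1 (0.351), Emilin2 (0.105), Fbln2 (0.100) and Fbn1 (0.0264 CPM per kb) were lower. Between its lowest and highest library, Fbn2 differed 66.5-fold and Mfap4 50.0-fold, the widest ratios of the 10, and Mfap2 differed 4.37-fold, the narrowest. Exons of Fbn1, Fbn2 and Eln overlap those of predicted genes on the other strand, by 2442, 129 and 212 bases, and whether reads were counted by strand is not given.

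**Figure D1:**
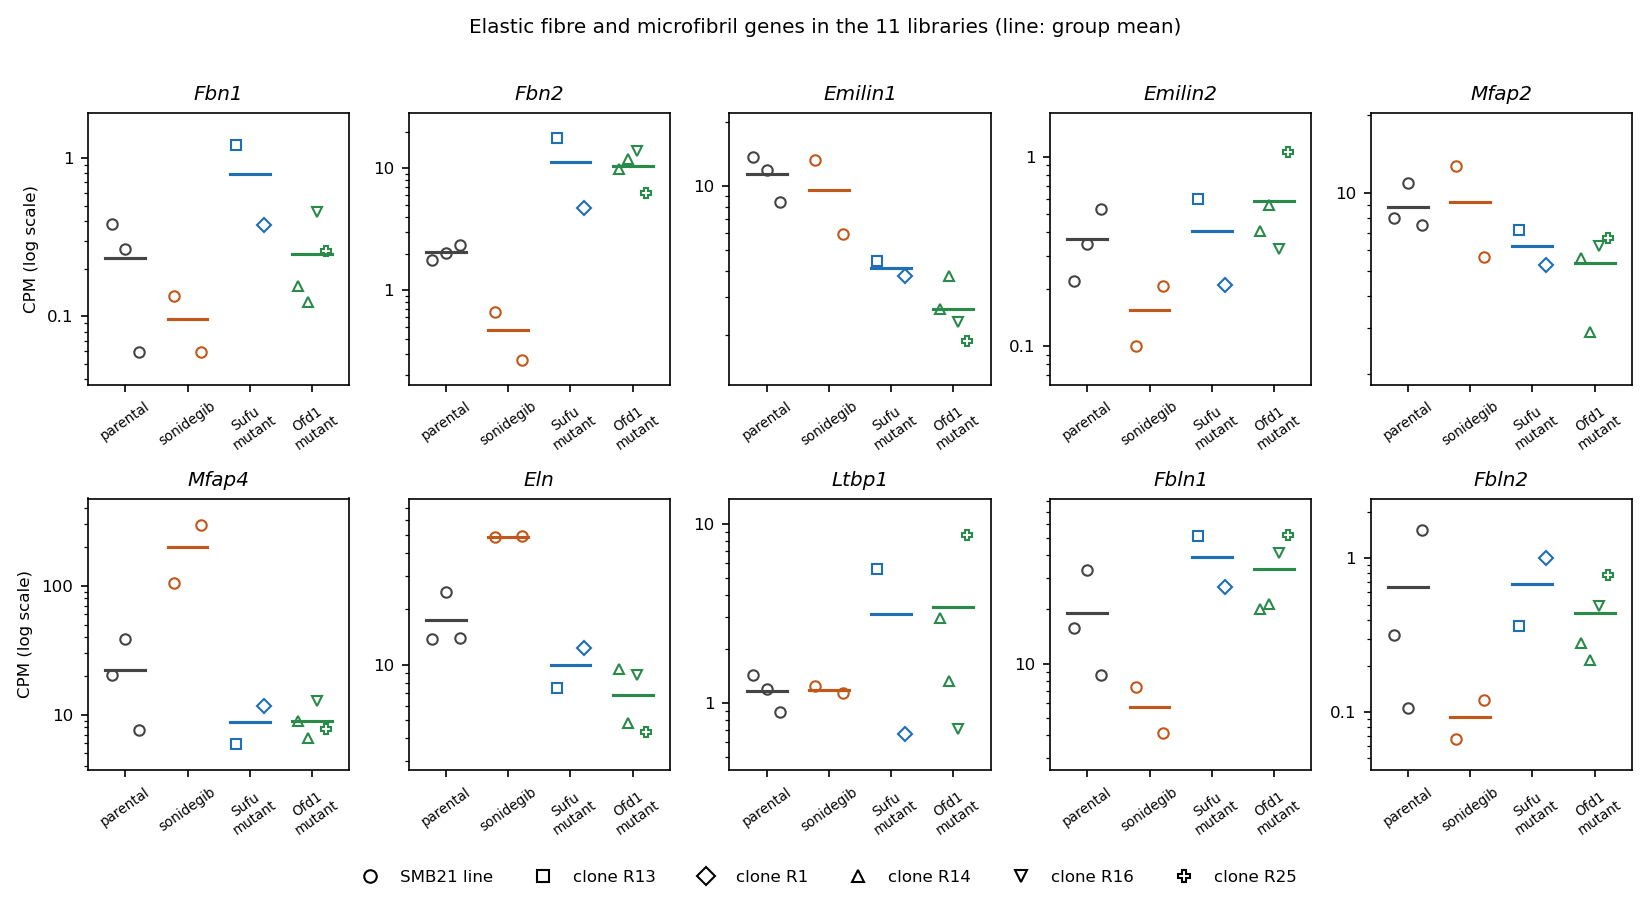
CPM on a log axis, on a separate scale for each gene, for the 10 genes in each library, by group; each point is a library, its shape the clone, and the line is the group mean. Both sonidegib libraries sit above all parental ones for Mfap4 and Eln, and all 6 clone libraries sit above them for Fbn2 and below them for Emilin1, Mfap2 and Eln.

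The order of the genes per kb changed between groups. In parental cells Mfap4 (12.5 CPM per kb) led Mfap2 (8.23), Fbln1 (5.23) and Eln (4.51), and each overlapped its neighbour in that order over the 3 libraries. After sonidegib Mfap4 stood at 114 CPM per kb and Eln, in the next place, at 12.7 CPM per kb. Fbln1 came first in both clone classes, at 10.6 CPM per kb in Sufu mutants and 9.19 CPM per kb in Ofd1 mutants, and Mfap4 stood there at 4.96 and 5.06 CPM per kb. As a share of the summed CPM per kb of the 10 genes, Mfap4 took 21.1% to 42.6% in parental, 66.4% to 88.9% in sonidegib, 11.2% to 27.6% in Sufu-mutant and 15.2% to 25.02% in Ofd1-mutant libraries. Fbln1 took 11.6% to 17.8% in parental libraries, 0.591% to 2.25% after sonidegib, 30.8% to 46.7% in Sufu mutants and 26.9% to 49.4% in Ofd1 mutants. The make-up thus shifted towards Mfap4 in drug and towards Fbln1 in the clones, with no overlap in the Fbln1 share between parental and any other group. A share also moves with the other genes. The summed level was 20.2 to 50.8 CPM per kb in parental and 89.9 to 188.7 CPM per kb in sonidegib libraries. Fbln1 itself stood at 1.57 CPM per kb after sonidegib, and in level only 3 of 6 clone libraries lay above the parental range.

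**Figure D2:**
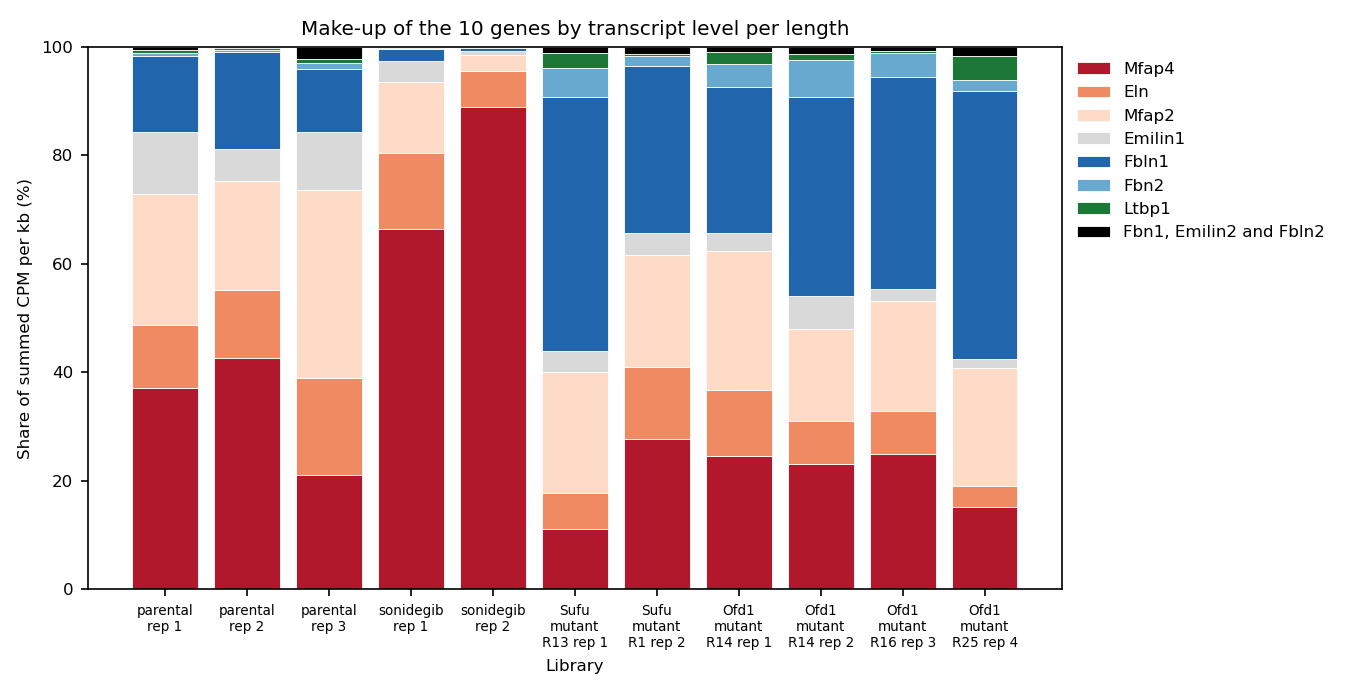
Share of each gene in the summed CPM per kb of the 10 genes (vertical axis, percent) in each of the 11 libraries (horizontal axis), as stacked bars. Mfap4 takes 66.4% to 88.9% of the bar in the sonidegib libraries, and Fbln1 takes 26.9% to 49.4% in the 6 clone libraries.

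Upstream sequences from RefSeq (GRCm38.p6) were matched for 7 of the 10 genes, as 11 windows of the 250 bases before an annotated start. Eln, Fbn2 and Mfap4 were not matched. Both strands were searched for a Gli site (GACCACCCA), a TATA box (TATAAA), an E-box (CACGTG), a cyclic AMP response element (TGACGTCA) and a Smad element (CAGACA), none of which overlap here. The Gli site was in 0 of the 11 windows and in 0.225% of the 32851 such windows of all genes, and the TATA box in 0 of 11 and 12.4%. The E-box was in 2 of 11 windows, both of Fbln1 and overlapping, against 6.02% of all. The cyclic AMP element was in 1 of 11, of Ltbp1, against 1.55%, and the Smad element in 5 of 11 against 17.1%. Of those 5 windows, 2 were the overlapping ones of Fbln1, which hold the same Smad element. The windows of 3 genes are shown because the results below turn on them: Emilin1 (chr5:30913536-30913785, plus strand) was low in every clone, Fbln1 (chr15:85205699-85205948, plus strand) was low in drug, and Ltbp1 (chr17:75005279-75005528, plus strand) varied most between clones. Capitals mark the Smad element in Emilin1, the E-box and a Smad element on the other strand in Fbln1, and the cyclic AMP element in Ltbp1. A match is a description of the letters and does not show a site in use.
Emilin1: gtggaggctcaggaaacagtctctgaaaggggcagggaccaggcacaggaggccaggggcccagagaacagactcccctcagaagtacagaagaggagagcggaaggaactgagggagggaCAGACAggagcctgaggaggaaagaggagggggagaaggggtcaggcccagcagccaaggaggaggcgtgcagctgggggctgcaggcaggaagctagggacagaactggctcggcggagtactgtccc
Fbln1: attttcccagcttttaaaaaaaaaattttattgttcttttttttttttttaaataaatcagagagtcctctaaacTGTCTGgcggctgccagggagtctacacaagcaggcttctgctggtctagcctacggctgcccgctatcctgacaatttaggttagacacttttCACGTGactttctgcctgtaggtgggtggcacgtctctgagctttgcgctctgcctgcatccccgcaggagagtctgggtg
Ltbp1: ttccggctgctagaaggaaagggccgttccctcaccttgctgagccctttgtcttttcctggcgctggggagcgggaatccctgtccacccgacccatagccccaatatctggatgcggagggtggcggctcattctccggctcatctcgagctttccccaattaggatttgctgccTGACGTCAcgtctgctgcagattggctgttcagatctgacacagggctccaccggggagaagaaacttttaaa

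Eln codes for elastin itself. It stood at 13.7, 24.5 and 13.9 CPM in parental replicates 1, 2 and 3, and sonidegib replicate 1 held 48.6 CPM and replicate 2 49.2 CPM. Of the clones, R13 held 7.49 CPM and R1 12.3 CPM, while Ofd1 mutants held 9.50 and 4.86 CPM in the R14 pair, 8.78 CPM in R16 and 4.31 CPM in R25. The drug libraries thus lay above every parental library and all 6 clone libraries below, and the Sufu and Ofd1 mutants overlapped. The means were 17.4 ± 6.16 CPM (SD, n = 3) in parental, 48.9 ± 0.448 CPM (n = 2) in sonidegib, 9.90 ± 3.40 CPM (n = 2) in Sufu-mutant and 6.86 ± 2.66 CPM (n = 4) in Ofd1-mutant libraries. Here and below n counts libraries, and the 4 of Ofd1 mutants came from 3 clones.

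The fibrillins form the microfibril backbone. Fbn2, which is best known from embryonic microfibrils, stood at 1.77, 2.02 and 2.33 CPM in the parental libraries and at 0.667 and 0.268 CPM after sonidegib. It stood at 17.8 CPM in R13, 4.70 CPM in R1, 9.81 and 12.01 CPM in R14, 13.9 CPM in R16 and 6.28 CPM in R25. No group overlapped the parental one, drug lay below it and every clone above, and R13 was the highest library. The means were 2.04 ± 0.281 CPM (n = 3) in parental, 0.468 ± 0.282 CPM (n = 2) in sonidegib, 11.3 ± 9.28 CPM (n = 2) in Sufu and 10.5 ± 3.28 CPM (n = 4) in Ofd1 mutants. Fbn1, the main fibrillin of adult tissue, was nearly silent, with 2 to 12 counts per library in parental, 2 to 4 in sonidegib and 4 to 14 in Ofd1-mutant libraries. Its highest level was 1.20 CPM, from 30 counts, in R13, the clone that was also highest for Fbn2, while R1 had 9 counts.

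Microfibril-associated glycoproteins bind the fibrillins. Mfap4, which also binds elastin, stood at 20.4, 38.4 and 7.56 CPM in the parental libraries in that order, and sonidegib replicate 1 held 106 CPM and replicate 2 297 CPM. It stood at 5.93 CPM in R13, 11.6 CPM in R1, 8.85 and 6.59 CPM in R14, 12.7 CPM in R16 and 7.68 CPM in R25. The parental libraries themselves differed 5.07-fold, and parental replicate 3 lay among the clones. The means were 22.1 ± 15.5 CPM (n = 3) in parental, 201 ± 135 CPM (n = 2) in sonidegib, 8.78 ± 4.03 CPM (n = 2) in Sufu and 8.96 ± 2.67 CPM (n = 4) in Ofd1 mutants. Exons of Mfap4 overlap 89 bases of Mapk7 on the other strand, and Mapk7 stood at 131, 131 and 102 CPM in parental, 199.6 and 163 CPM in sonidegib and 92.7 to 107 CPM in clone libraries. Mfap2, which codes for the glycoprotein MAGP1, was steadier: it stood at 8.01, 10.9 and 7.53 CPM in parental, 12.7 and 5.66 CPM in sonidegib, 7.17 CPM in R13, 5.25 CPM in R1, 5.59 and 2.91 CPM in R14, 6.24 CPM in R16 and 6.67 CPM in R25. All 6 clone libraries were below the lowest parental one, R13 by a small margin, and the sonidegib libraries lay on either side of the parental range.

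EMILINs are glycoproteins at the interface of elastin and microfibrils. Emilin1, which also restrains TGF-beta maturation, stood at 13.7, 11.8 and 8.36 CPM in parental libraries, 13.2 and 5.96 CPM in sonidegib, 4.45 CPM in R13, 3.78 CPM in R1, 2.64 and 3.78 CPM in R14, 2.31 CPM in R16 and 1.87 CPM in R25. All clones lay below all parental and drug libraries, and sonidegib replicate 2 lay below the parental range while replicate 1 was inside it. The means were 11.3 ± 2.73 CPM (n = 3) in parental, 9.57 ± 5.11 CPM (n = 2) in sonidegib, 4.11 ± 0.472 CPM (n = 2) in Sufu and 2.65 ± 0.815 CPM (n = 4) in Ofd1 mutants. Emilin2 was low, with 3 to 41 counts per library, and its highest level was 1.06 CPM in R25. Its sonidegib values, 0.100 and 0.209 CPM, were under the parental ones of 0.222, 0.345 and 0.532 CPM, and the nearest pair rested on 7 counts each.

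Fibulins link elastin and fibrillins to basement membrane and to other matrix. Fbln1 stood at 15.8, 33.0 and 8.62 CPM in parental libraries and at 7.41 and 4.08 CPM after sonidegib. It stood at 51.1 CPM in R13, 26.8 CPM in R1, 20.0 and 21.6 CPM in R14, 41.1 CPM in R16 and 51.8 CPM in R25. Both drug libraries lay below the parental range, 3 of the 6 clone libraries (R13, R16 and R25) lay above it, and the other 3 lay inside it. The means were 19.1 ± 12.5 CPM (n = 3) in parental, 5.75 ± 2.35 CPM (n = 2) in sonidegib, 38.9 ± 17.2 CPM (n = 2) in Sufu and 33.6 ± 15.5 CPM (n = 4) in Ofd1 mutants. Fbln2 was low, with 2 to 52 counts per library; the 52 counts, 1.54 CPM, were in parental replicate 3, whose fellow libraries stood at 0.316 and 0.106 CPM. With a 14.5-fold range among parental libraries, no clone library of Fbln2 lay outside the parental range.

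Ltbp1 codes for a protein that holds latent TGF-beta in the matrix. It stood at 1.42, 1.19 and 0.886 CPM in parental and at 1.23 and 1.13 CPM in sonidegib libraries, inside the parental range. In the clones it stood at 5.57 CPM in R13, 0.672 CPM in R1, 2.98 and 1.33 CPM in R14, 0.715 CPM in R16 and 8.64 CPM in R25. Both clone classes thus held libraries above and below the parental range, with 3 of 6 above and 2 of 6 below.

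The first comparison asked what acute drug did to the parental line. After 24 h of sonidegib Mfap4 and Eln were higher and Fbn2, Fbln1 and Emilin2 lower in both libraries than in any parental library. On the log2 scale the difference from parental cells was 3.17 ± 0.69 (SE) for Mfap4, 1.48 ± 0.31 for Eln, -2.13 ± 0.59 for Fbn2, -1.74 ± 0.62 for Fbln1 and -1.23 ± 0.72 for Emilin2. Mfap2 (0.06 ± 0.44), Ltbp1 (0.01 ± 0.48) and Emilin1 (-0.24 ± 0.44) differed by less than their SE, and Fbln2 by -2.76 ± 1.26. The Fbln2 value rested on parental replicate 3, at 52 counts, and the groups overlapped. Parental replicates 1 and 2 held 10 and 4 counts of Fbln2 and the sonidegib libraries 2 and 4. Without parental replicate 3 Fbln2 did not pass the low-count filter. Of the 10 genes 9 passed the low-count filter, Fbn1 being the exception, and their median log2 difference was -0.24 against 0.04 over all 13809 genes tested.

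No overlap with the parental libraries was seen for 2 of the 9 on the higher and 3 on the lower side, where 18.0% and 16.3% of all genes showed none. By edgeR's quasi-likelihood test at an adjusted p under 0.05, 0 of the 9 were called, and 9 genes, 0.0652% of all tested (0.00724% higher and 0.0579% lower), were. Since these libraries chose the members, nothing is read from those counts. A fit of all 11 libraries called Mfap4 among 316 of 14306 genes. DESeq2 called Eln, Fbn2 and Mfap4 among 711 of 17909 genes. Nothing is read from these calls either, for the same reason. The size for Mfap4 rested on sonidegib replicate 2, the library with the length trend: its log2 difference was 2.24 without that library and 3.69 without replicate 1. The longest transcript of Mfap4 has 1770 bases and that of Fbn2 11041, the most among the 9 genes tested. What part the length trend had in their values was not tested. For Fbn2 the log2 difference was -1.63 without sonidegib replicate 2 and -2.96 without replicate 1. Within parental replicates 1 and 2 and sonidegib replicate 1 alone, an alternative chosen after seeing the data, it was 1.82 for Mfap4, 1.32 for Eln, -1.52 for Fbn2 and -1.74 for Fbln1. The difference for Emilin1 changed sign with the library left out (0.20 without sonidegib replicate 2, -0.98 without replicate 1), as did that for Mfap2 (0.51 and -0.69).

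**Figure D3:**
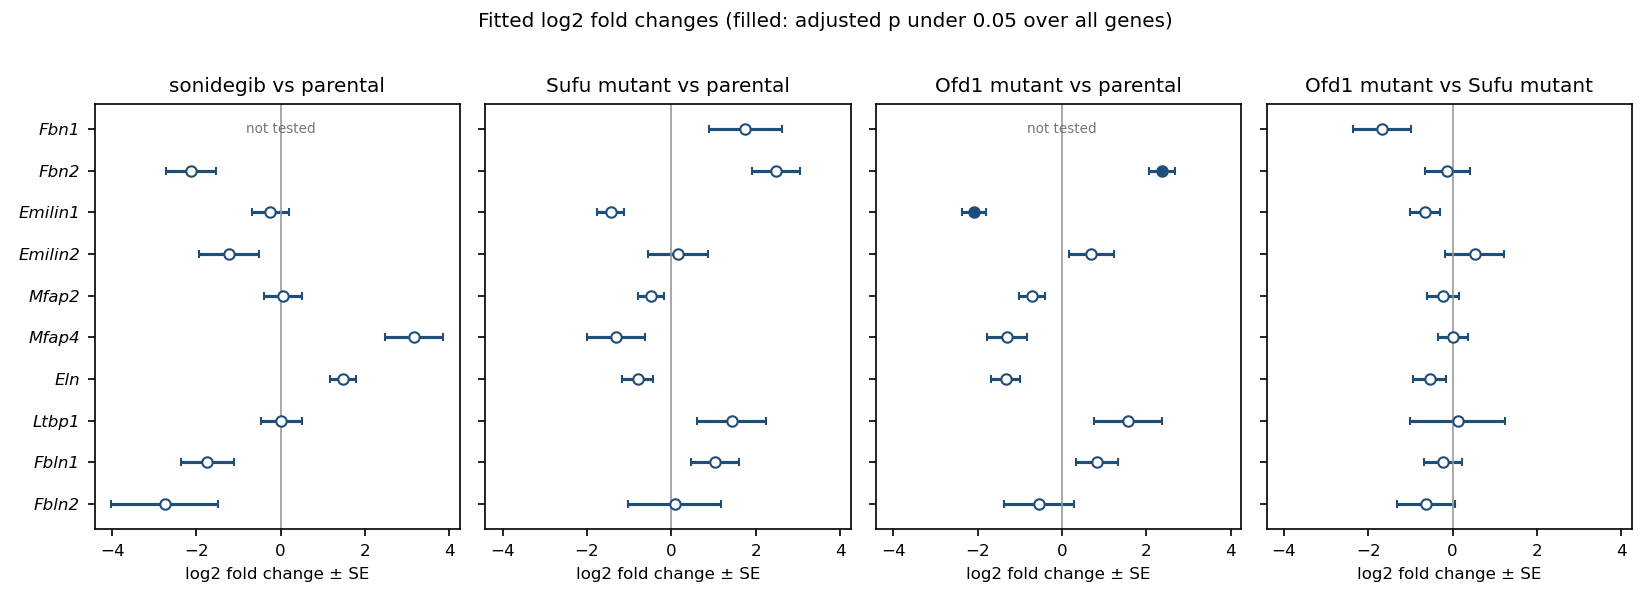
Fitted log2 fold changes (points) with SE (bars) of the 10 genes in 4 comparisons; filled points had an adjusted p under 0.05 over all genes, and a gene marked as not tested did not pass the low-count filter. Mfap4 after sonidegib (3.17) lies farthest from 0, and Fbn2 (2.37) and Emilin1 (-2.09) are filled in Ofd1 mutants. Both calls were lost in several alternatives. These libraries chose the members, so nothing is read from the filled points.

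The second comparison set the Sufu-mutant clones against parental cells. Fbn2 was higher, and Emilin1, Mfap2 and Eln were lower, in both clones than in any parental library. The log2 differences were 2.48 ± 0.57 for Fbn2, -1.44 ± 0.32 for Emilin1, -0.49 ± 0.31 for Mfap2 and -0.80 ± 0.37 for Eln. Fbln1 (1.04 ± 0.56), Fbn1 (1.76 ± 0.86) and Ltbp1 (1.44 ± 0.82) had higher means with overlapping libraries, Emilin2 (0.16 ± 0.71) and Fbln2 (0.08 ± 1.11) were within their SE of 0, and Mfap4 stood at -1.32 ± 0.68. Against parental replicate 3 alone, an alternative chosen after seeing the data, the Mfap4 value turned to 0.22, that for Emilin2 to -0.37 and that for Fbln2 to -1.16. The other values were then 3.66 for Fbn1, 2.19 for Fbln1, 1.83 for Ltbp1, 2.28 for Fbn2, -1.01 for Emilin1, -0.48 for Eln and -0.27 for Mfap2. All 10 genes were tested, with a median of 0.12 against 0.00 over 13854 genes. Fbn1 passed the low-count filter only in comparisons that held the Sufu mutants, the group where its mean was highest. Nothing is thus read from its value or its place in the median.

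The counts without overlap, 1 of 10 higher and 3 of 10 lower, stand beside 11.9% and 14.8% of all genes, and nothing is read from them. By edgeR 0 of the 10 were called, as were 0 of the 13854 genes (0%), and DESeq2 called Fbn2 and Emilin1 among 320 of 18088 genes. These libraries chose the members, so nothing is read from the calls. The clones differed from each other: without R13, the difference was 1.21 for Fbn2 and turned to -0.79 for Ltbp1 and -0.78 for Emilin2. Without R1 that for Fbn2 was 3.14.

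The third comparison set the Ofd1-mutant clones against parental cells. Again Fbn2 was higher and Emilin1, Mfap2 and Eln lower in every clone library than in any parental one. The log2 differences were 2.37 ± 0.31 for Fbn2, -2.09 ± 0.29 for Emilin1, -0.71 ± 0.31 for Mfap2 and -1.34 ± 0.34 for Eln. Here and in the fourth comparison both R14 libraries were fitted as separate samples though they come from the same clone. The SE may thus understate the spread between clones. Mfap4 stood at -1.29 ± 0.47, and at 0.25 against parental replicate 3 alone, where Fbln1 stood at 1.97, Emilin1 at -1.65, Eln at -1.02 and Fbln2 at -1.78. Ltbp1 (1.57 ± 0.80), Fbln1 (0.82 ± 0.50), Emilin2 (0.70 ± 0.54) and Fbln2 (-0.54 ± 0.83) overlapped with the parental libraries. Without R25 the Ltbp1 value was 0.52, and without parental replicate 2 the Fbln1 value was 1.48. Without parental replicate 3 the Fbln2 value turned to 1.08, and in Sufu mutants it was then 1.71. Of the 10 genes 9 were tested, without Fbn1, and their median was -0.54 against 0.01 over 13779 genes. The Sufu and Ofd1 comparisons share the 3 parental libraries, so their like values are not independent.

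No overlap was seen for 1 of 9 genes higher and 3 of 9 lower, beside 6.17% and 7.25% of all genes. By edgeR 1 gene was called higher (Fbn2) and 1 lower (Emilin1), beside 0.181% of all genes each way and 0.363% together; nothing is read from this, since these libraries chose the members. Both calls were lost when parental replicate 1 or 2 or Ofd1 replicate 1, 2 or 3 was left out, when both R14 libraries were summed into 1, and when all 11 libraries were fitted at once. Over all alternatives the difference stayed between 2.17 and 2.55 for Fbn2 and between -2.31 and -1.65 for Emilin1. DESeq2 called both and Eln, among 770 of 18440 genes. Without parental replicate 3, 329 of 13945 genes were called and Mfap4 (-1.72) was among them. Nothing is read from these calls on members either.

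The fourth comparison set the clone classes against each other, with no parental library involved. Emilin1 was lower in all 4 Ofd1-mutant libraries than in both Sufu-mutant libraries, by -0.66 ± 0.36 on the log2 scale though R1 and R14 replicate 2 both stood at 3.78 CPM to 3 digits. The other 9 genes overlapped. Fbn2 differed by -0.13 ± 0.53, Mfap4 by 0.01 ± 0.36, Fbln1 by -0.23 ± 0.46, Mfap2 by -0.23 ± 0.38, Eln by -0.55 ± 0.40, Ltbp1 by 0.12 ± 1.12, Emilin2 by 0.52 ± 0.70, Fbln2 by -0.63 ± 0.68 and Fbn1 by -1.68 ± 0.69. The Fbn1 value again depends on a filter that Fbn1 passed only with the Sufu mutants present. By edgeR 0 of the 10 were called, beside 1 of 14026 genes (0.00713%), and DESeq2 called 0 of them and 266 genes. The counts without overlap, 0 of 10 higher and 1 lower, stand beside 9.85% and 8.34% of all genes. Without R13 the difference for Fbn2 was 1.14 and that for Ltbp1 2.34.

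The 4 Ofd1-mutant libraries allow a look at spread within and between clones. The R14 libraries differed by 0.11 on the log2 scale for Fbln1 and by 0.29 for Fbn2, but by 0.94 for Mfap2, 0.97 for Eln and 1.16 for Ltbp1. For 6 of the 10 genes the 95% counting interval of the difference within the R14 pair excluded 0, so repeats of a clone differed by more than counting error, which is the only error the interval covers. The largest difference between clones was 3.59 for Ltbp1 (R16 against R25), and 1.88, 1.85 and 1.71 for the low-count genes Fbn1, Fbln2 and Emilin2. It was 1.37 for Fbln1, 1.20 for Mfap2, 1.15 for Fbn2, 1.14 for Eln, 1.02 for Emilin1 and 0.95 for Mfap4. It exceeded the R14 pair for 10 of 10 genes, and the median difference between clones did so for 7 of 10. The largest of 5 differences is wider than a single one by construction. The median between clones was 1.04 for Fbln1 and 2.06 for Ltbp1, above the R14 pair. It was 0.25 for Mfap2, 0.85 for Eln and 0.50 for Emilin1, below the R14 pair (0.52 for Emilin1).

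Across the 11 libraries, Pearson correlations of log2(CPM + 1) between members are descriptions that share libraries, groups and scaling. Mfap4 and Eln ran together (r = 0.915), and Fbn2 ran opposite to Eln (-0.860), Mfap4 (-0.824) and Emilin1 (-0.726). Fbln1 ran with Fbn2 (0.784) and opposite to Eln (-0.753). Ltbp1 had no r beyond 0.504 in size with any of the other 6 members at a mean of 1 CPM or more. The genes most like each member among 10248 with a mean of at least 5 CPM were also listed. They were Wnt5a (0.979), Pde3b (0.958) and Ephb4 (0.945) for Emilin1. For Fbn2 they were Wwc2 (0.954), Slc29a2 (0.942) and Ctu2 (0.938), and for Fbln1 Ifih1 (0.971), Sowahc (0.966) and Cyp26b1 (0.953). For Mfap4 they were Btg1 (0.982), Etfdh (0.976) and Rab30 (0.964), whose Spearman's rho were 0.882, 0.691 and 0.664, for Eln Slc18b1 (0.951), Ralgds (0.947) and Ndrg3 (0.947), and those for Mfap2 included Galnt4 (0.871) and Spns2 (0.864). For Ltbp1 they were Serpinb8 (0.949), Celf4 (0.913) and Hsd17b11 (0.911). The likeness to Serpinb8 rested on R25, at 44.9 CPM, and R13, at 21.1 CPM, with 1.17 to 3.11 CPM in the other 9 libraries, and by Spearman's rho it was 0.555.

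Partners of the fibres were read from 7 lists with 86 genes, of which 84 were in the table: other family members, crosslinking and processing enzymes, matrix scaffolds, integrin receptors, the elastin receptor complex with elastases, TGF-beta ligands with receptors, and TGF-beta targets. By edgeR 0 partner genes were called in any of the 4 comparisons, of 60 tested after sonidegib, 59 in Sufu mutants, 60 in Ofd1 mutants and 62 between the clone classes. At an unadjusted p under 0.05, 5 partners were higher and 4 lower after sonidegib, where 14% of all genes passed, 8 and 4 in Sufu mutants (9.68%), 6 and 5 in Ofd1 mutants (13.8%), and 2 and 6 between the clone classes (8.93%). DESeq2 called 6, 7, 8 and 5 of them. Median log2 differences of the partners were -0.09 after sonidegib, 0.14 in Sufu mutants, 0.20 in Ofd1 mutants and -0.03 between the classes, close to the all-gene medians of 0.04, 0.00, 0.01 and 0.00.

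**Figure D4:**
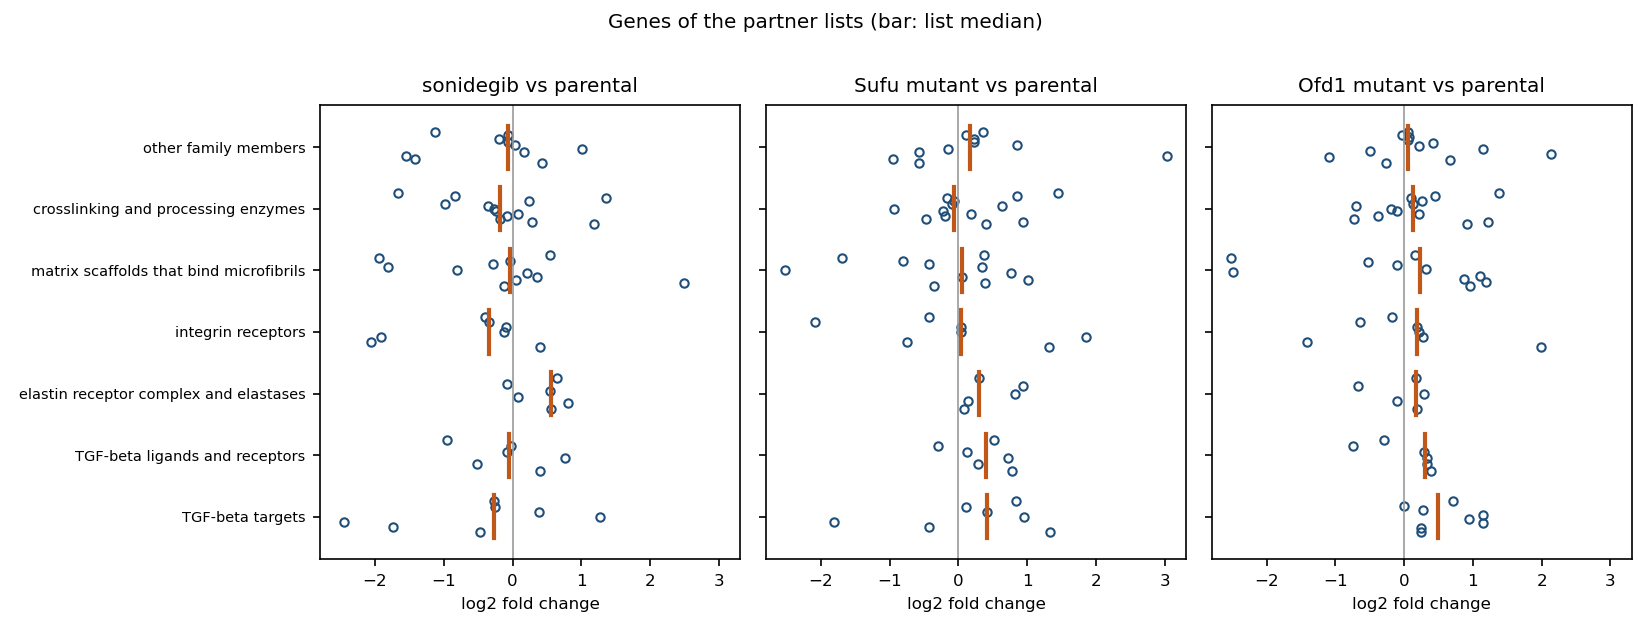
Log2 fold changes (horizontal axis) of the tested genes of 7 partner lists (rows) in 3 comparisons with parental cells; each circle is a gene and the bar is the list median. List medians run from -0.35 to 0.56, and 0 of these genes had an adjusted p under 0.05 by edgeR.

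Most of the abundant partners had ranges that overlapped with those of parental cells. Furin, a protease that cuts profibrillin, had 77.2 to 101.8 CPM in parental and 52.5 to 94.2 CPM in all other libraries. Integrin beta 1 (Itgb1) had 233 to 260 CPM in parental and 225 to 311 CPM in the others, and the integrin alpha chain Itgav had 63.7 to 91.2 CPM and 63.4 to 100.3 CPM. For the lysosomal proteases Ctsl and Ctsa, of which Ctsa belongs to the elastin receptor complex, parental levels were 71.0 to 78.5 CPM and 51.2 to 54.9 CPM. Ctsa stood at 62.0 to 96.3 CPM after sonidegib, which by edgeR was a log2 difference of 0.57 ± 0.24 (adjusted p 0.356). It also lay above the parental range in Sufu mutants (54.90 to 57.02 CPM, a small margin) and Ofd1 mutants (57.03 to 67.2 CPM). Those log2 differences were 0.09 ± 0.13 and 0.19 ± 0.11. Mfap1a and Mfap1b, near-identical copies between which reads may be split, stood at 137 to 189 CPM and 113 to 162 CPM in parental cells and differed from them by -0.19 to 0.23 on the log2 scale in the 3 comparisons.

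Some examples among the processing enzymes, matrix scaffolds and TGF-beta genes lay outside the parental range, though edgeR called 0 of them. After sonidegib 8 of 60 tested partners lay above all parental libraries and 9 below, beside 18.0% and 16.3% of all genes. The counts were 13 and 5 of 59 in Sufu mutants (11.9% and 14.8% of all genes). They were 9 and 4 of 60 in Ofd1 mutants (6.17% and 7.25%). The examples, and Ctsa above, are thus given as values only. Perlecan (Hspg2), a basement membrane proteoglycan that binds fibrillin, stood at 10.99 to 18.7 CPM in parental and 2.20 to 5.91 CPM in sonidegib libraries, which by edgeR was a log2 difference of -1.81 ± 0.53 (adjusted p 0.235). Adamtsl1 stood at 14.4 to 24.99 CPM in Ofd1 mutants against 6.84 to 12.7 CPM in parental cells (0.96 ± 0.28, adjusted p 0.181). Adamts10, a protease that binds fibrillin, stood at 52.2 to 92.6 CPM against 24.1 to 44.2 CPM (0.91 ± 0.26, adjusted p 0.176). In Sufu mutants Adamts10 was also above the parental range, at 47.0 to 49.5 CPM (0.40 ± 0.28, edgeR adjusted p 0.674). Its sonidegib libraries, at 36.2 and 133.5 CPM, overlapped with that range. Tgfb2 stood at 65.4 to 87.2 CPM in parental and 46.7 to 55.4 CPM in sonidegib libraries (-0.52 ± 0.23, adjusted p 0.366). The receptor gene Tgfbr1 and the target Skil overlapped with parental levels in all groups. Smad7, an inhibitor that TGF-beta induces, stood at 7.47 to 10.2 CPM in parental, 13.6 to 18.0 CPM in Sufu and 11.1 to 20.5 CPM in Ofd1 libraries (0.83 ± 0.25, adjusted p 0.438, and 0.72 ± 0.25, adjusted p 0.252).

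Among the partners, 3 were singled out after their values were seen. Thsd4, which codes for an ADAMTS-like protein that promotes fibrillin microfibril assembly, stood at 6.93, 9.48 and 10.4 CPM in parental and 2.07 and 2.59 CPM in sonidegib libraries. The Sufu mutants R13 and R1 held 2.97 and 2.48 CPM, and the Ofd1 mutants 0.497 and 0.898 CPM (R14), 2.5 CPM (R16) and 2.26 CPM (R25), with log2 differences of -1.94 ± 0.40, -1.70 ± 0.33 and -2.52 ± 0.52 from parental cells in drug, Sufu and Ofd1 libraries (edgeR adjusted p 0.125, 0.283 and 0.0878). The fibulin Fbln7 stood at 1.90, 3.08 and 1.42 CPM in parental, 0.334 and 1.13 CPM in sonidegib, 29.0 CPM in R13, 5.63 CPM in R1, 7.52 and 9.07 CPM in R14, 17.5 CPM in R16 and 3.37 CPM in R25. Like Fbn2, it was below the parental range in drug and above it in every clone, with log2 differences of -1.54 ± 0.69, 3.04 ± 0.70 and 2.13 ± 0.55 (adjusted p 0.369, 0.333 and 0.144). Ltbp3, a relative of Ltbp1, stood at 39.3, 49.6 and 49.4 CPM in parental and 85.2 and 100.9 CPM in sonidegib libraries, a log2 difference of 1.01 ± 0.21 (adjusted p 0.130); it was called when all 11 libraries were fitted at once. Mfap5, the gene of the second fibrillin-binding glycoprotein MAGP2, had 0 counts in all 5 parental and sonidegib libraries and at most 6 counts in a clone library.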

How the data were processed

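The authors deposited raw read counts for each gene symbol and library (24308451 to 38241595 per library). Per the labels' protocols, stranded poly(A) libraries came from 500 ng of RNA, with single-end reads of 75 bp from 1 run. Per the submitters' processing notes, STAR, DESeq2 and mm9 were used; their roles and versions, the counting tool and its strand setting were not given in the sources used here. An entry naming no gene (0.0131% to 0.0192% of counts) was left out. Groups followed the labels. CPM used library sizes scaled by TMM. Log2 fold changes, with SE from the fold change and its F statistic, came from edgeR 4.0.16 (quasi-likelihood, robust, TMM, filterByExpr, R 4.3.3), fitted pairwise across all genes, two-sided, with Benjamini-Hochberg adjustment over all genes and a threshold of 0.05. DESeq2 1.42.0, other scalings, no filter, a fit of all libraries, a replicate block and left-out libraries were alternatives. The code was tested on simulated data. Transcript length and exon overlap came from GENCODE M21 (GRCm38, not the build of the reads), as the longest transcript per symbol. Members and lists were chosen with earlier results of these data known. Named partners were the 2 most abundant of each list and called genes; named similar genes were the 3 with the highest r, passing over predicted genes; 1 gene that this rule names is not reported here. PCR copies of 1 molecule could not be told from separate molecules, so intervals cover counting error only.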

Additional observations from a re-analysis of the deposited data

How the results depend on the processing

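Of the members' fold changes under the alternatives, 434 moved by less than the spread between replicates, 24 moved by more. Of the members, 6 of 9 after sonidegib, 6 of 10 in Sufu mutants, 7 of 9 in Ofd1 mutants and 3 of 10 between the clone classes kept their sign wherever they were fitted. After sonidegib Fbln2 was fitted in 9 and Emilin2 in 10 of 12 alternatives, since they did not pass the low-count filter in the rest. The numbers of genes called moved far more, and the cause was not tested. After sonidegib 9 genes were called; 109 were without the low-count filter, 316 with all 11 libraries in 1 fit, 711 (212 higher, 499 lower) by DESeq2, and 0 to 3263 when 1 library was left out, the highest without sonidegib replicate 1. In Sufu mutants 0 were called; 3 were without the filter, 320 (139 higher, 181 lower) by DESeq2, and 0 to 11 with 1 library left out. In Ofd1 mutants 50 were called; 32 were with upper-quartile factors (13 higher, 19 lower), 84 without the filter, 9 with all 11 libraries, 770 (442 higher, 328 lower) by DESeq2, 1 with both R14 libraries summed, and 0 to 329 with 1 library left out: 0 without parental replicate 1 or 2 or Ofd1 replicate 2, 6 and 11 without Ofd1 replicates 1 and 3, 226 without R25 and 329 without parental replicate 3. Between the clone classes 1 was called; 2 were without the filter, 266 by DESeq2, 0 with R14 summed, and 0 to 11 with 1 library left out. Partner genes called were 0; with all 11 libraries in 1 fit 1 was called after sonidegib (Ltbp3), by DESeq2 6, 7, 8 and 5 in the 4 comparisons, and with 1 library left out 0 to 10 after sonidegib and 0 to 2 in Ofd1 mutants. By Spearman's rho the likeness of Mfap4 to Btg1 was 0.882 and that of Ltbp1 to Serpinb8 0.555. A replicate block over sonidegib and parental numbers gave 97 calls, among them the member Mfap4, and 0 partner genes, and moved Fbln2 from -2.76 to -1.02. Whether the numbers pair cultures was not shown. Deviations from the group mean correlated at 0.25 for replicates 1 and at -0.334 for replicates 2. With 2 sonidegib libraries, the deviations of 1 mirror those of the other, so these values are not separate and cannot decide it. Fbn1 and Fbln2 had counts as low as 2 in a library and Emilin2 as low as 3, so their values carry wide counting error.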
